A study of Mus musculus with 2 samples.

Results

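The Krüppel-like factors (Klf) described here are 10 genes, Klf1, Klf2, Klf3, Klf4, Klf5, Klf6, Klf7, Klf8, Klf12 and Klf15, out of 23320 gene symbols present in both deposited tables. They are the activators of the family (Klf1, Klf2, Klf4, Klf5, Klf6, Klf7 and Klf15 in the grouping used here) and the repressors that bind the corepressor CtBP (Klf3, Klf8 and Klf12). Members were taken by symbol, and each symbol had 1 row in each table. The rule that chose them used none of the measured values, although earlier results of these data were known. The values come from E13.5 mouse primordial germ cells (PGCs), the precursors of eggs and sperm, sorted by GFP from genital ridges of male and female embryos of MCH mothers and Oct4-deltaPE-GFP transgenic fathers. The sorted PGCs were infected at an MOI of 5 with a lentivirus that drives Klf9 or with a control lentivirus. After 1 day of culture on gelatin they gave 1 library per condition, called control and Klf9-OE below. Both groups carry the Oct4-deltaPE-GFP transgene and both were infected. The labels place both cultures in medium with bFGF and the paper places them in medium without it, and which of its empty or mCherry vectors served as control for sequencing is not given in the sources used here. Since neither condition was replicated, no test across replicates was possible, and the intervals below cover estimation error inside one library and not the spread between cultures.

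Klf proteins bind GC-rich and CACCC sequences through zinc fingers at the C-terminus, whereas their N-termini differ and recruit either coactivators or corepressors. Klf2, Klf4 and Klf5 sustain the self-renewal of embryonic stem cells, and Klf4 is one of the factors used to reprogram somatic cells. Klf1 drives the red cell programme, Klf3 and Klf8 act beside it in erythroid cells, and Klf9, the gene carried by the vector, belongs to another branch of the family that recruits Sin3.

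The CtBP-binding members are set apart from the activators by a short motif, Pro-X-Asp-Leu followed by Ser or Thr, that docks on CtBP. The coding sequence around it is shown because it is the feature that divides the members. Each line gives the GENCODE coding strand of the mouse genome (mm10), with the codons of the motif in capitals.
Klf3, chr5:64821967-64822041, strand +: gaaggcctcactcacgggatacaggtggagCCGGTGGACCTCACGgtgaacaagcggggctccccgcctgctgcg
Klf8, chrX:153382653-153382727, strand +: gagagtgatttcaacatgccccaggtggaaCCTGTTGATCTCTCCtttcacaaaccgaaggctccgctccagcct
Klf12, chr14:100023007-100023081, strand -: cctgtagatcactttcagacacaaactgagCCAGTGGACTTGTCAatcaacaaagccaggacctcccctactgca
The motif occupies residues 61 to 65 of Klf3, 83 to 87 of Klf8 and 81 to 85 of Klf12, in exon 3 of 6, exon 4 of 7 and exon 4 of 8, respectively. In the longest protein of each gene, 3 of the 10 members held the motif, against 2.03% of 21760 coding genes, and none of the 7 activators did. The motif searched for is the one that sets the CtBP-binding members apart, so this division follows from the grouping and is no separate result.

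The other end of the proteins was shared. All 10 members had 3 zinc fingers of the C2H2 type, and the first finger began 82 to 94 residues before the C-terminus. Over the 81 residues that begin at the first finger, Klf6 and Klf7 had 95.1% identical residues. Klf2 and Klf4 had 91.4%, as had Klf3 and Klf12. Identity with Klf9 ran from 60.5% for Klf6 to 65.4% for Klf3, Klf8 and Klf12. Klf15 was as far from the other members, with 63.0% to 67.9% identical residues. Reads of 51 bases could nevertheless be told apart between the genes. None of the 45 pairs of members shared a window of 51 bases with 2 mismatches or fewer, and no window of the Klf9 coding region came closer than 8 mismatches to a member's transcript (the closest was Klf5). The Klf9 coding region thus shared no window of read length with the members at this tolerance.

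The Klf9-OE library carried the intended gene. Klf9 was at 2.27 RPKM (reads per kilobase of transcript, scaled to the mapped reads of the library) in control PGCs and at 80.8 RPKM in Klf9-OE PGCs. Germ cell markers dominated both libraries, with Pou5f1 at 387 RPKM in control and 277 RPKM in Klf9-OE. The summed RPKM of 12 germ cell markers was 1819 in control and 1532 in Klf9-OE, with 11 of the 12 lower in Klf9-OE. Markers of other cells were present at far lower levels. The sums in control and Klf9-OE were 29.5 and 38.0 RPKM for 10 gonad somatic markers, 23.4 and 31.9 for 8 endothelial markers, and 68.5 and 97.7 for 7 mesenchymal or smooth muscle markers. They were 5.82 and 6.66 for 8 macrophage markers and 1.72 and 1.42 for 7 erythroid markers, of which Hbb-bh1 was listed at 0 in both. These 7 are the ones found of 12 listed erythroid markers. The globin genes Hba-a1, Hba-a2, Hbb-bs and Hbb-bt were not among them, so the erythroid sum leaves these out. Intervals lay apart, higher and lower in Klf9-OE, for 5 and 1 of the gonad somatic markers, 2 and 2 of the endothelial, 5 and 0 of the mesenchymal, 1 and 0 of the macrophage and 0 and 0 of the erythroid markers. Star, a gonad somatic marker, was listed at 0 in control. Several members are expressed in such cells, so these sums move beside the values below, and their part in them was not tested. In bulk RNA, fewer cells of a type and less RNA per cell cannot be told apart.

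In control PGCs, Klf5 had the highest level of the members, at 13.9 RPKM (Cufflinks 95% interval 12.9 to 14.99). It was followed by Klf8 at 13.495 (12.8 to 14.2), whose interval overlapped with that of Klf5. Klf7 at 10.8 (10.2 to 11.3), Klf3 at 9.85 (8.45 to 11.3), Klf4 at 8.09 (7.45 to 8.74), Klf2 at 6.69 (5.91 to 7.47) and Klf6 at 6.31 (5.78 to 6.84) formed a descending series in which each gene overlapped with the next. A gap without overlap separated Klf8 from Klf7, and another separated Klf6 from the 3 lowest genes. These were Klf15 at 2.28 (1.86 to 2.69), Klf12 at 1.55 (0.996 to 2.097) and Klf1 at 0.956 (0.623 to 1.29). RPKM is a value per length of transcript, so levels can be set side by side between genes. For Klf3 and Klf12 the reads implied by the intervals in control were few for such levels. Klf3 had 198 for a GENCODE transcript of 5221 bases, against 293 for 1847 bases of Klf2. Klf12 had 31.6 for 5890 bases, against 33.1 for 1530 bases of Klf1. The places of Klf3 and Klf12 in the order are therefore less certain. Among the 18742 genes above 0 in either library, Klf5 stood at percentile 69.9 and Klf1 at percentile 35.2 of the control library.

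**Figure D1:**
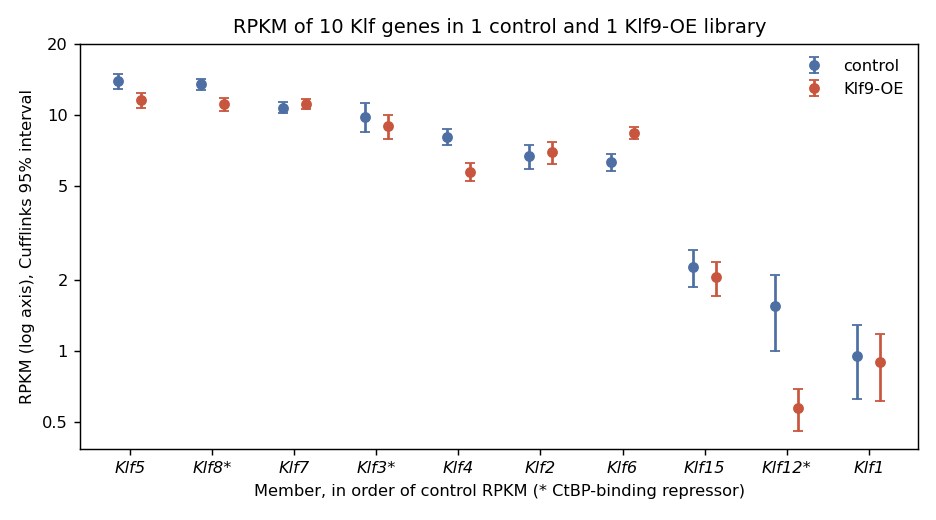
RPKM (log axis) of the 10 Klf genes in the control library (blue) and the Klf9-OE library (red), with points for the value and bars for the Cufflinks 95% interval. Klf5 leads in both libraries, at 13.9 and 11.5 RPKM, Klf4 and Klf6 change places in the order, and Klf12 shows the widest gap, at 1.55 and 0.574 RPKM.

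The order was largely kept in Klf9-OE PGCs. Klf5 was again the highest at 11.5 RPKM (10.7 to 12.4), with Klf7 at 11.2 (10.6 to 11.7) and Klf8 at 11.1 (10.4 to 11.8) overlapping in turn. Klf6 moved from rank 7 to rank 5 of the 10, Klf4 from rank 5 to rank 7, and Klf12 from rank 9 to rank 10. The remaining members differed by at most 1 rank between the libraries. The CtBP-binding members were spread over the whole order. Klf12 stood at rank 9 in control and had the lowest value in Klf9-OE, although its interval overlapped with that of Klf1 in both libraries. By contrast, Klf8 and Klf3 stood above Klf2, Klf4 and Klf6 in control PGCs by RPKM. The intervals of Klf3 and Klf4 overlapped, and the place of Klf3 is less certain for the few reads implied in control.

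The next comparison asks how the other Klf genes stood when Klf9 was over-expressed. Differences are those of log2(RPKM + 0.1), Klf9-OE minus control, and an approximate interval of the difference was derived from the Cufflinks bounds. Of the 10 members, 3 were higher and 7 lower in Klf9-OE PGCs by the sign of the difference. Of the 18742 genes above 0, 8997 were higher and 9745 lower by sign. The median log2 difference of the members was -0.14, against -0.015 over these 18742 genes. Differences were small: 1 member, Klf12, was at least 2-fold lower and none was at least 2-fold higher. Of the 18742 genes, 9.43% were lower and 9.82% higher by this fold. Of the 12565 genes that reached 1 RPKM in either library, a set that holds 9 of the members, the shares were 3.79% and 3.93%. For 5 of the 10 members the Cufflinks intervals lay apart, of which Klf4, Klf5, Klf8 and Klf12 were lower and Klf6 was higher. The share of all genes above 0 with intervals apart was 14.4% lower and 11.2% higher, and that of the 12565 genes was 20.2% lower and 14.8% higher. With 10 genes and 1 library per condition, these counts are a description and were not tested.

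**Figure D2:**
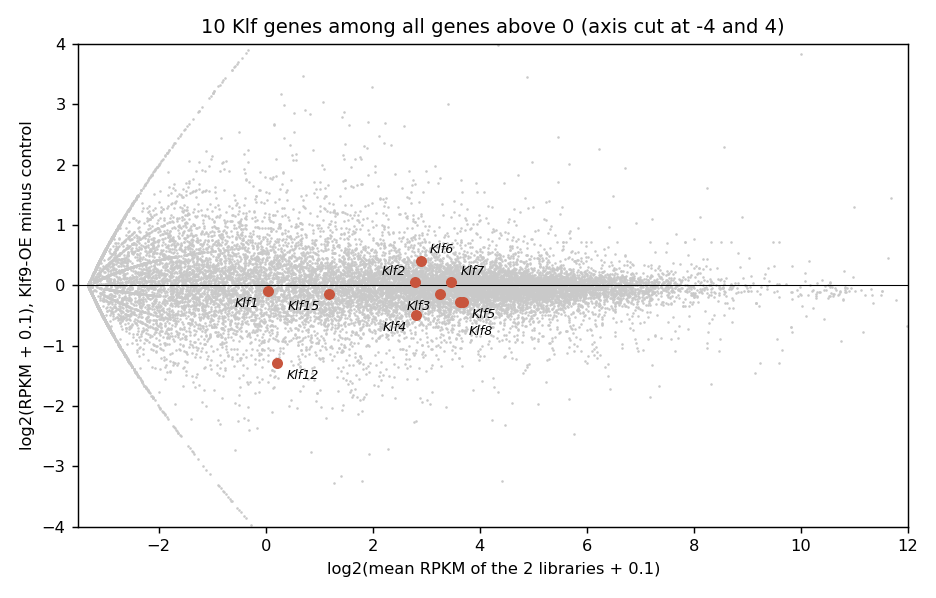
Difference between the libraries, in log2(RPKM + 0.1), Klf9-OE minus control, against the log2 of the mean RPKM plus 0.1 for all genes above 0 in either library (grey, genes beyond 4 in either direction not drawn) and the 10 Klf genes (red). The members lie within the cloud of genes of like level, from -1.29 for Klf12 to 0.41 for Klf6.

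Among the pluripotency-related activators, Klf2 did not differ beyond its intervals, at 6.69 RPKM in control and 6.94 (6.22 to 7.66) in Klf9-OE. The interval of its log2 difference ran from -0.17 to 0.27. Klf4 was at 8.09 RPKM in control and at 5.74 (5.25 to 6.24) in Klf9-OE, with a log2 difference of -0.49 (-0.66 to -0.32). Klf5 was at 13.9 RPKM in control and 11.5 in Klf9-OE, with a log2 difference of -0.27 (-0.42 to -0.12). The intervals of Klf4 and of Klf5 were apart, while those of Klf2 were not. Whether the change of Klf4 differs from that of Klf2 could not be tested with single libraries, but the intervals of their log2 differences did not overlap. For Klf5 the gap was narrow, since its intervals overlapped once the libraries were scaled to the same sum of RPKM.

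Klf6 and Klf7 have nearly the same zinc fingers and are broadly expressed activators. Klf6 was at 6.31 RPKM in control and 8.43 (7.92 to 8.93) in Klf9-OE, with a log2 difference of 0.41 (0.27 to 0.56). It was the only member whose higher value in Klf9-OE had an interval apart from control. The deposited locus of Klf6 began at base 5861367 of chromosome 13 in control and at base 5861489 in Klf9-OE. The loci of Klf3, Klf5, Klf7 and Klf8 also differed between the libraries, so the values of these genes were not estimated over the same locus. Klf7 was at 10.8 RPKM in control and 11.2 in Klf9-OE, with a log2 difference of 0.053 (-0.050 to 0.16). Antisense genes, Gm26649 and Gm13748, lie over exons of Klf7, and the counting is not stated to use strand, so reads of Klf7 and of these genes cannot be told apart. The mesenchymal, endothelial and gonad somatic marker sums were also higher in the Klf9-OE library, and their part in the value of Klf6 was not tested.

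Klf1 and Klf15 are the activators with tissue-bound roles, in red cells and in the metabolism of liver, muscle and heart. Klf1 was at 0.956 RPKM in control and 0.895 (0.610 to 1.18) in Klf9-OE, which rested on 33.1 and 39.5 reads as implied by the intervals. Its log2 difference of -0.085 had an interval from -0.70 to 0.53, and a difference inside it was not detectable at this depth. Klf15 was at 2.28 RPKM in control and 2.05 (1.71 to 2.39) in Klf9-OE, with a log2 difference of -0.14 (-0.48 to 0.20). Neither gene differed beyond its intervals.

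All 3 CtBP-binding members had lower values in Klf9-OE PGCs, with a median log2 difference of -0.28, against -0.085 for the 7 activators. For all 3, and for Klf6 and Klf7 among the activators, RPKM did not go together with the reads implied by the intervals, as set out below. The contrast between the groups was not tested. Klf3, which shuts off targets of Klf1 in red cells and restrains fat cell formation, was at 9.85 RPKM in control and 8.95 (7.91 to 9.98) in Klf9-OE. Its log2 difference was -0.14 (-0.40 to 0.12), with intervals that overlapped. Klf8, itself a target of Klf1 and Klf3, was at 13.495 RPKM in control and 11.1 in Klf9-OE, with a log2 difference of -0.28 (-0.40 to -0.16) and intervals apart. The locus of Klf3 in the tables began 5417 bases before the GENCODE gene in control and 5387 bases before it in Klf9-OE. It ended at base 64830129 in control and at base 64830492 in Klf9-OE, short of base 64832901, where the GENCODE gene ends. The antisense gene Gm20033 lies over the first part of Klf3, and its reads cannot be told apart from those of Klf3 without strand.

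Klf12, a repressor of the AP-2 alpha gene, had the largest log2 difference of the 10. It was at 1.55 RPKM in control (0.996 to 2.097) and 0.574 RPKM in Klf9-OE (0.458 to 0.690), a 2.69-fold lower value and a log2 difference of -1.29 (-1.83 to -0.75). The number of reads behind a value can be read from the width of its interval where the width reflects reads alone. By this measure 31.6 reads stood behind Klf12 in control and 97.6 in Klf9-OE, a ratio of 3.09. From the RPKM and the depth of the libraries (1.20 implied reads in Klf9-OE per read in control, median over 8551 genes, quartiles 1.08 and 1.27), a ratio of 0.447 would follow. The implied reads and the RPKM of Klf12 thus move in opposite directions. The locus of Klf12 in both tables ended at base 100149796 of chromosome 14, well short of base 100284679, the 5′ end of the GENCODE gene on the minus strand, so reads from GENCODE exons beyond it are outside the value, and the promoter printed below lies at the end of the shorter locus. Its value is an estimate summed over transcripts, GENCODE lists 6 transcripts of the gene, and the tables do not hold values per transcript. Whether fewer reads or another division of reads among transcripts lies behind the lower RPKM was not tested.

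The same comparison set the other members in 2 groups. Implied reads and RPKM went together within 10% for Klf1, Klf2, Klf4, Klf5 and Klf15. They did not for Klf3, Klf6, Klf7, Klf8 and Klf12, where the ratio of implied reads divided by the ratio from RPKM and depth ranged from 0.723 for Klf8 to 6.92 for Klf12. Of the 5 members with intervals apart, Klf4 and Klf5 are in the first group and Klf6, Klf8 and Klf12 in the second. In the Klf9-OE library, 89.0% of 1767 genes with 1 to 9 implied reads had an even number of them, against 36.4% of 2132 genes in control. All 5 members kept intervals apart when the Klf9-OE intervals were widened as for reads counted in pairs.

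**Figure D3:**
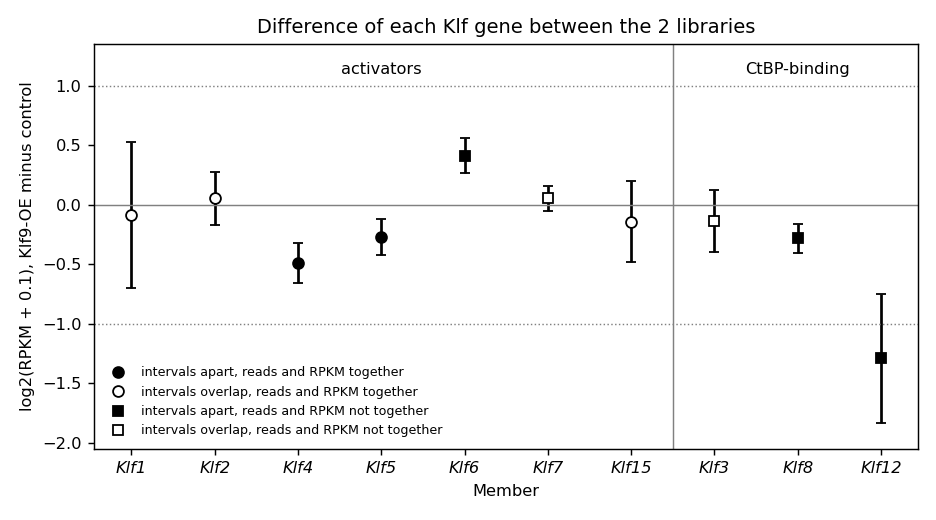
Log2(RPKM + 0.1) in Klf9-OE minus control for each Klf gene, with bars for the approximate interval derived from the Cufflinks bounds and dotted lines at a difference of 1 in either direction. Filled symbols have RPKM intervals apart (Klf4, Klf5, Klf6, Klf8 and Klf12), and squares mark genes whose implied reads and RPKM did not go together within 10%. Klf12, at -1.29, is the only point beyond a dotted line.

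The promoters of members with intervals apart are shown because Klf9 and the other Klf proteins bind GC boxes and CACCC boxes. Of the 10 members, 9 had an entry in the RefSeq promoter table (GRCm38.p6), and Klf5 had none. Each line gives the 250 bases before the annotated start, 5′ to 3′ on the strand of the gene, with matches to CACCC and GGGCGG on either strand in capitals. Neighbouring matches may overlap. Klf8 has 2 annotated starts, and the starts are those of RefSeq. Both Klf8 windows lie inside the deposited locus, which began at base 153237430 in control and at base 153237403 in Klf9-OE. The deposited locus of Klf6 in control began inside the Klf6 window, at base 5861367.
Klf4, chr4:55532476-55532725, strand -: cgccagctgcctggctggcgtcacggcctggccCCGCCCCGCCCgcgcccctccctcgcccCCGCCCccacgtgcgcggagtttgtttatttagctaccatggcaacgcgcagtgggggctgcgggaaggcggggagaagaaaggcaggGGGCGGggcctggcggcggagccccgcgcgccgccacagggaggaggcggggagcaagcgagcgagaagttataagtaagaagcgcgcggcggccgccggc
Klf6, chr13:5861239-5861488, strand +: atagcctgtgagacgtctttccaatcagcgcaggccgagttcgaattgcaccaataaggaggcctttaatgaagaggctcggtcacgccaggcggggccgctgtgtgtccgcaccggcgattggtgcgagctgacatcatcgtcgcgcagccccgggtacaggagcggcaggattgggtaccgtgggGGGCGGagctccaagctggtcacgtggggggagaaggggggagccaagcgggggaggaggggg
Klf8, chrX:153237498-153237747, strand +: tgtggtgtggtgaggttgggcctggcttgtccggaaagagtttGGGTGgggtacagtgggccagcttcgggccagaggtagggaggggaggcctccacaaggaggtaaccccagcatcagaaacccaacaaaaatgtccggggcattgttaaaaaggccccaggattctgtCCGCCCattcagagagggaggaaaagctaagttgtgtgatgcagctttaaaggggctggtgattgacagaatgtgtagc
Klf8, chrX:153359363-153359612, strand +: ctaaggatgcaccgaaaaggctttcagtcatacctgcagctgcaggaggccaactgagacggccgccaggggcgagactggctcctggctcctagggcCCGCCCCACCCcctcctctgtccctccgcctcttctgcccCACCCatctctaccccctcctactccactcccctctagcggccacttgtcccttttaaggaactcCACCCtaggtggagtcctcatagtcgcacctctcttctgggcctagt
Klf12, chr14:100149797-100150046, strand -: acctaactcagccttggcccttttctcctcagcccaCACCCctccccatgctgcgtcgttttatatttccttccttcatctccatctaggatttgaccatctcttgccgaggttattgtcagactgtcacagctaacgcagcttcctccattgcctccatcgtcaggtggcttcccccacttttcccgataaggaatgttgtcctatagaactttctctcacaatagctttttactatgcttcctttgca
The promoter of Klf4, which was lower, held 4 GC boxes and no CACCC box, and that of Klf6, which was higher, held 1 GC box, no CACCC box and 4 matches to CCAAT. The promoter of Klf12 held 1 CACCC box and no GC box, with 48.0% G and C. Over the 10 promoters of the 9 members, 8 held CACCC and 8 held GGGCGG on either strand. Of all 32851 promoters of this length, 52.0% held CACCC and 32.7% held GGGCGG. The median promoter had 52.4% G and C, and those of the members had 48.0% to 78.4%, the highest being that of Klf3 with 6 GC boxes and 5 CACCC boxes. These matches describe the letters of the windows, and binding was not measured.

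Several partners through which the members act were more abundant than any member. Of 12 CtBP corepressors and complex partners, none was changed 2-fold, 3 had higher and 4 lower values with intervals apart, and the median log2 difference was -0.14. The highest were Hdac2, a histone deacetylase, at 246 and 195 RPKM in control and Klf9-OE, and Ehmt2, an H3K9 methyltransferase, at 151 and 135 RPKM. The CtBP genes themselves, named here after their values were seen, went in opposite directions. Ctbp1 was at 38.5 RPKM (36.6 to 40.5) and 35.2 (33.5 to 37.0), with intervals that overlapped, and Ctbp2 was at 6.65 (6.005 to 7.30) and 9.02 (8.30 to 9.75), with intervals apart. The main CtBP transcript of these PGCs was therefore that of Ctbp1 in both libraries.

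Of 12 coactivators and ubiquitin ligases that bind Klf activators, none was changed 2-fold, 4 had higher and 5 lower values with intervals apart, and the median log2 difference was -0.015. Smarca4, the motor of the BAF remodelling complex, was at 70.8 and 76.4 RPKM, and Prmt5, an arginine methyltransferase, at 53.7 and 52.6 RPKM. The largest difference in this list was that of Btrc, a ubiquitin ligase subunit noted after its value was seen, at 13.0 RPKM (12.3 to 13.6) in control and 24.1 (22.5 to 25.7) in Klf9-OE. Among 12 genes upstream of Klf2, Klf4 and Klf5, those of the LIF and ERK5 signals together with Foxo1, none was changed 2-fold. Of them, 2 had higher and 3 lower values with intervals apart, Foxo1 being 1 of the lower, and the median was -0.047. Stat3, through which LIF induces Klf4, was at 105 RPKM (101 to 109) and 94.9 (91.3 to 98.5), and the kinase Jak1 was at 56.3 and 57.8 RPKM. Klf4 and Stat3 were both lower with intervals apart, Stat3 by a log2 difference of -0.15. Other genes of the LIF signal, named after their values were seen, did not all follow. Lifr was higher with intervals apart, at 8.44 and 10.4 RPKM, and Socs3 had overlapping intervals, at 46.5 and 43.4 RPKM. A link between the values of Stat3 and Klf4 was not tested.

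Of 13 pluripotency genes bound by Klf2, Klf4 and Klf5, 9 were lower and 4 higher by the sign of the difference, 7 and 3 of them with intervals apart, and the median was -0.22. One gene was at least 2-fold lower and none at least 2-fold higher. This was Lefty1, a Nodal inhibitor, at 3.55 RPKM (2.95 to 4.16) in control and 1.74 (1.347 to 2.14) in Klf9-OE. Pou5f1, at 387 and 277 RPKM, and Fbxo15, at 54.7 (51.7 to 57.7) and 30.1 (28.1 to 32.2) RPKM, were the most abundant. Sox2, noted after its value was seen, was the opposite, at 40.6 (39.0 to 42.2) and 55.3 (53.6 to 57.0) RPKM. Pou5f1 is also a germ cell marker, and the germ cell sum was lower in the Klf9-OE library.

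Target lists of single members held few differences of 2-fold with intervals apart. Among 9 erythroid Klf1 targets and 7 Klf2 targets of endothelium and T cells there were none with intervals apart, and the median log2 differences were 0.085 and 0.20. The 9 Klf1 targets are those found of 14 listed, without the globin genes Hba-a1, Hba-a2, Hbb-bs and Hbb-bt. Of the Klf1 targets, 3 were higher and 2 lower by 2-fold or more, all with overlapping intervals. Icam4, a red cell adhesion molecule, was at 1.53 (0.781 to 2.27) and 0.508 (0.214 to 0.803) RPKM. Of the Klf2 targets, the integrin gene Itgb7 was at 2.41 and 3.0004 RPKM and the chemokine receptor gene Cxcr4 at 2.23 and 2.14 RPKM. All genes of these target lists had overlapping intervals.

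Klf3 represses the gene for adipolin, listed as Fam132a, which was at 16.6 RPKM (14.98 to 18.3) in control and 11.99 (10.7 to 13.2) in Klf9-OE. With Klf8 and Lgals3 it made a list of 3 Klf3 targets with a median log2 difference of -0.28, of which 2 were lower with intervals apart. That median is the value of Klf8, which is itself a member and 1 of these 2, so it adds no separate value. Of 9 Klf6 and Klf7 targets, 4 were higher and 1 lower with intervals apart, with a median log2 difference of 0.26. Cdkn1a, a cell cycle inhibitor, was at 12.4 (11.3 to 13.6) and 14.9 (13.7 to 16.1) RPKM, and Tgfbr1, a TGF-beta receptor, at 16.9 and 16.1 RPKM. Eng, a TGF-beta coreceptor of endothelium, was listed at 0 in control and at 2.38 RPKM (2.05 to 2.71) in Klf9-OE, and a value of exactly 0 can be a failed estimate. Klf6 and 4 of its listed targets were thus higher together, while endothelial and mesenchymal marker sums were higher as well.

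Of 5 Klf12 and Klf8 targets, 2 were higher and 1 lower with intervals apart, with a median log2 difference of 0.13. Cdh1, the E-cadherin gene that Klf8 represses, was at 23.4 RPKM (22.5 to 24.3) and 17.1 (16.4 to 17.8), and Ep300, a histone acetyltransferase, at 26.7 and 29.2 RPKM. Tfap2a, the AP-2 alpha gene that Klf12 represses, was named after its value was seen, at 0.722 RPKM (0.529 to 0.916) and 0.772 (0.591 to 0.952), with intervals that overlapped while Klf12 itself was lower. Of 10 metabolic targets of Klf15, 2 were at least 2-fold lower with intervals apart, and 2 were higher with intervals apart by less than 2-fold. Bcat2, the branched-chain aminotransferase, was at 8.37 RPKM (7.44 to 9.31) and 3.74 (3.18 to 4.30). Aass, an enzyme of lysine breakdown, was at 2.28 (1.84 to 2.72) and 1.07 (0.881 to 1.26) RPKM. Acss2, an acetyl-CoA synthetase, was at 49.5 and 50.1 RPKM, and the median log2 difference of the list was 0.00087. The 2 higher genes were Prodh, the proline dehydrogenase, at 10.4 (9.44 to 11.4) and 12.5 (11.5 to 13.52) RPKM, and Gpt, an alanine aminotransferase named after its value was seen, at 1.36 (0.989 to 1.74) and 2.48 (1.88 to 3.08) RPKM. Klf15 itself had overlapping intervals.

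**Figure D4:**
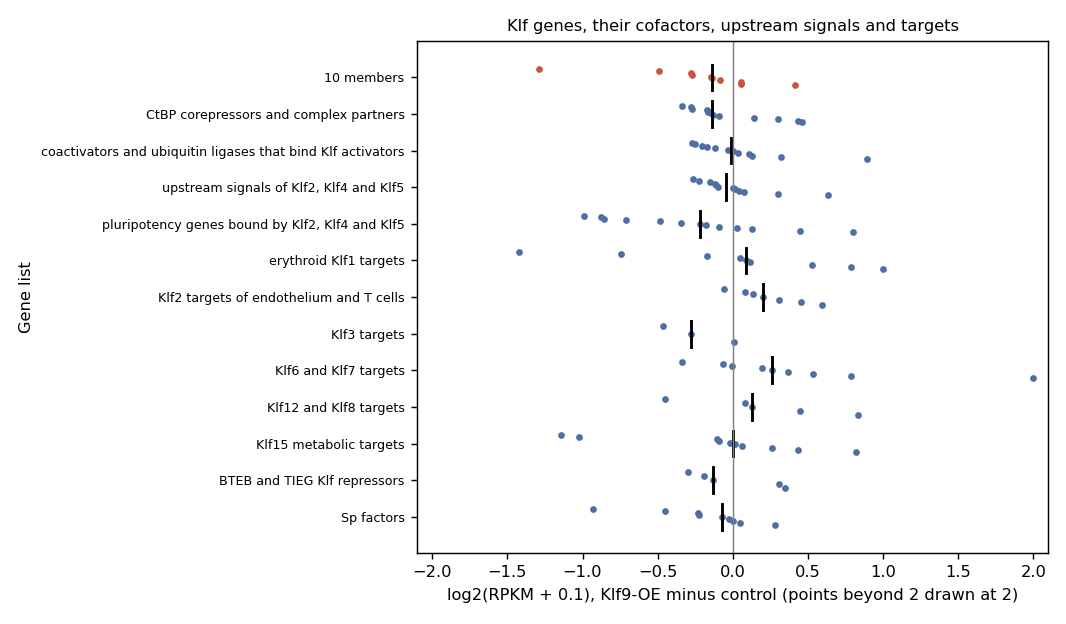
Log2(RPKM + 0.1) in Klf9-OE minus control for the 10 Klf genes (red) and for genes of 12 lists (blue, 1 point per gene above 0 in either library), with a black bar at the median of each list. Medians lie between -0.28 for the 3 listed Klf3 targets and 0.26 for the Klf6 and Klf7 targets, with -0.14 for the members. The median of the Klf3 targets is the value of Klf8, also a member, and the point at the right edge is Eng.

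Some factors that bind the same GC boxes were at higher levels than any member. Klf10 and Klf11, the TIEG repressors, were at 23.9 and 27.0 RPKM in control and at 29.7 and 21.9 RPKM in Klf9-OE, and Sp1 was at 25.4 RPKM in both. The 5 BTEB and TIEG repressors other than Klf9 had a median log2 difference of -0.13, and the 9 Sp factors had one of -0.074. Sp8, the one listed factor at least 2-fold lower with intervals apart, was at 0.302 RPKM in control and 0.111 RPKM in Klf9-OE. The summed RPKM of the 10 members was 73.9 in control and 67.4 in Klf9-OE, that of the 9 Sp factors was 74.0 and 72.7, and Klf9 alone was at 80.8 RPKM in Klf9-OE. The implied reads of Klf9 were 230 in control and 1825 in Klf9-OE, a ratio of 7.95 where 42.9 would follow from RPKM and depth, so the RPKM of Klf9 and its reads did not go together either. Both measures were higher in Klf9-OE.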

How the data were processed

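RNA-seq was available for 1 control and 1 Klf9-OE library of PGCs. The authors mapped reads to mm10 and RefSeq genes with TopHat2 and Bowtie and deposited FPKM per locus, as Cufflinks estimated it with a 95% interval; for single-end reads this is RPKM. Versions are not given in the sources used here. The authors' Cuffdiff results were not used.

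Loci were summed by symbol, and ratios, log2(RPKM + 0.1) differences and overlap of intervals were calculated over all symbols, with no further filter except where stated. The tables hold no read totals. Reads were implied from the interval as (2 × RPKM / (upper bound - RPKM)) squared, with the depth ratio taken from genes with 1 transcript start and at least 100 implied reads in both libraries. A number of reads was called whole within 0.06. The interval of a log2 difference adds the relative widths of both intervals in quadrature. Older symbols were matched through RefSeq, and some listed genes are not analysed or not reported here.

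Named genes were the members, Klf9, the 2 genes of each list with the highest control RPKM, and up to 4 genes per list changed 2-fold with intervals apart. The members and lists were chosen with earlier results of these data known. Alternatives were pseudocounts of 0.01 and 1, a minimum of 1 RPKM in either library, expression above 0 in both libraries, scaling to the same upper quartile or sum, a ratio of 1.5, a widened Klf9-OE interval and the highest locus in place of the sum. Annotation and coding sequences came from GENCODE M21, and the longest complete protein of each gene was used. The fold, overlap and read steps were tested on simulated data. The simulated intervals were built from reads by the relation used to imply reads. Recovery of reads was thus fixed in advance and does not bear on the deposited intervals. Python 3.11.15 was used, with matplotlib 3.10.9, pandas 2.3.3 and numpy 2.4.6.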

Additional observations from a re-analysis of the deposited data

Results flagged for a closer look

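Cufflinks assembled loci without a gene name inside the loci of some members, and these were used in no comparison above. The locus of Klf8 held 3 of them in Klf9-OE and 0 in control, at 11.3, 21.0 and 37.2 RPKM, the higher 2 with 9.59 implied reads each. The locus of Klf3 held 3 in Klf9-OE, at 2.46 to 5.07 RPKM, and 1 in control, at 4.95 RPKM. Loci without a gene name numbered 15127 of 39071 in the Klf9-OE table and 6482 of 30382 in the control table, and the difference between the libraries was not tested.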

How the results depend on the processing

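The number of members at least 2-fold higher was 0 under every alternative run. Klf12 was at least 2-fold lower in all settings but 2. With a pseudocount of 1 the number of lower members was 0 and the log2 difference of Klf12 was -0.69. Among the members whose implied reads and RPKM went together, a setting chosen after seeing the data, the number of lower members was also 0, and 2 members (Klf4 and Klf5) rather than 5 had intervals apart, by construction on fewer genes. Scaling to the same sum left 4 members with intervals apart, without Klf5, and moved the median of all genes from -0.015 to 0.041. The median log2 difference of the members lay between -0.14 and -0.081 under all alternatives, and 3 members had a difference above 0 under each of them. Of 59 recalculated differences of members, 58 stayed within their interval, the exception being Klf12 as above. The highest locus and the minimum of 1 RPKM could not change a member's difference, so only the pseudocounts and scalings could move it. Of 72 list medians 71 stayed within the typical interval of their genes, and that of the Klf12 and Klf8 targets was 0.29 rather than 0.13 with a minimum of 1 RPKM. All 20 ranks were unchanged with the highest locus, which was fixed in advance because each member had 1 locus per library. No paired analysis was possible because each condition had 1 library, and for the same reason no library could be left out. The fewest implied reads were those of Klf12 in control and of Klf1 in Klf9-OE, and no value covers the difference between cultures.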
